A study of Rattus norvegicus with 9 samples.

Results

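Sham hippocampus was set against sham parietotemporal cortex in rat brain, gene by gene, on 6 Clariom D microarrays, which read the signal of many probes for each transcript cluster. The 3 arrays titled as hippocampus of sham rats were compared with the 3 titled as cortex of sham rats. Of 68842 transcript cluster rows, those with exactly 1 gene symbol were kept, with the brightest row for each gene, which gave 22093 genes. The 15522 of them with a mean over all 9 arrays of the series at or above 4.99 on the log2 scale, the median over the means of the rows, were tested. All rats were male, and total RNA came from bilateral hippocampus or bilateral parietotemporal cortex, dissected cold straight after decapitation. Sham rats were handled like the stimulated rats but no current was passed, and the labels give tissue collection at 4 h. The remaining 3 of the 9 arrays hold bilateral hippocampus taken 4 h after transcranial focal stimulation (TFS), a current applied through the scalp, at 300 Hz and 50 mA for 5 min. These arrays also entered the means that chose the brightest row of each gene and the genes tested. More of the 9 arrays are hippocampal than cortical, so genes high only in hippocampus pass that filter more readily than genes high only in cortex. In the fit the TFS arrays add to the estimate of the spread, and they are otherwise given as values. The sources used here do not state the strain, the age, or whether both regions came from the same rats. P-values therefore measure the spread between these samples, which may in part be technical.

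The hippocampus is a cortical structure with a simple layering. Granule cells of the dentate gyrus send mossy fibres to pyramidal cells of CA3, which project to CA1, and most of its neurons lie in single dense cell layers. The neocortex is a sheet of several layers, with intratelencephalic neurons in upper layers and subcortically projecting neurons in deep layers. Both regions hold glutamatergic principal cells, GABAergic interneurons, glia and vessels, but the transcription factors, receptors, channels and guidance molecules of their principal cells differ. In whole tissue, fewer cells of a type and less RNA per cell cannot be told apart.

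The 6 sham arrays separated by region. The first principal component of their tested genes held 70.5% of the variance and the second 12.2%. Correlations across genes were 0.977 to 0.9858 between hippocampal and cortical arrays and 0.9939 to 0.9974 within a region. Genes are not independent replicates, so these values describe the arrays only. Both sham arrays numbered 1 stood apart from the others on the second component, so results are also given without them. Positive control probe sets lay 3.674 to 4 log2 units above negative ones on the 9 arrays. The 95th percentile of the means of 1153 negative controls was 7.57, and a signal under that limit may be partly background. Differences at such levels are differences of array signal, not ratios of transcript. The small number of arrays limits precision.

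Of the 15522 genes, 1931 passed the limma test at an adjusted p under 0.05 (12.4%). In hippocampus 929 were higher (5.99%) and 1002 were lower (6.46%), and 116 of the called genes differed by over 2-fold (0.747%), 66 of them higher and 50 lower. With no signal filter, 1743 were called, 820 higher and 923 lower. The 3 hippocampal and 3 cortical arrays did not overlap for 3742 genes (24.1%), among them all 1931 called genes. The median absolute difference was 0.053 log2 units over all genes tested and 0.322 over the called genes. Among the 4188 genes whose means lay above the negative control limit in both regions, 819 were called (19.6%). Another 841 called genes had both means under that limit, and not every one of these named below is marked as such. A further 10 genes differed by over 2-fold without passing. Counts of list members stand beside 5.99% higher and 6.46% lower among all genes tested. Of the tested genes, 8554 had exactly the same value on 3 or more of the 9 arrays. Without these, 2127 of the fewer genes left were called, 1055 higher and 1072 lower, so the background share was then larger. Of 368 called genes followed across settings, 348 kept their call there and 5 lost it. The shares of all genes set beside lists below include genes with such repeated values. They are therefore a low background for lists with few such genes. With the array number as a block over the 6 sham arrays, called the paired fit below, 982 genes passed, 500 higher and 482 lower, and 866 of these were among the 1931. Without both sham arrays numbered 1 the count was 1328, of which 1116 were among the 1931. Unless a p is given, each gene named below as higher or lower also passed in the paired fit, without both arrays numbered 1, and with any 1 of the 9 arrays left out.

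**Figure D1:**
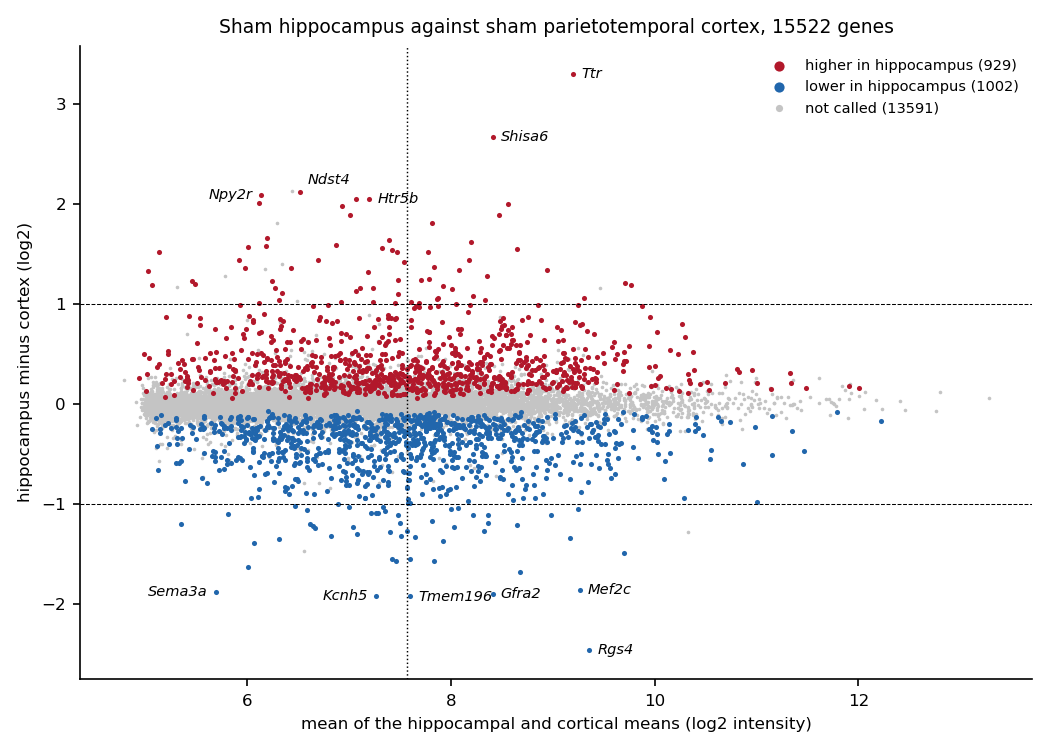
Each point is 1 of 15522 genes, with the mean of its hippocampal and cortical means on the x axis and the difference, hippocampus minus cortex, on the y axis, both on the log2 scale. Red points were called higher (929) and blue points lower (1002) in hippocampus, dashed lines mark 2-fold differences and the dotted line marks the negative control limit of 7.57. The largest differences are those of Ttr at 3.30 and Rgs4 at -2.46.

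Genes furthest above cortex were led by Ttr, Shisa6 and Ndst4, with the homeobox gene Prox1 and receptor genes further down the 15. Ttr, which encodes the thyroid hormone carrier transthyretin and is made in brain mainly by choroid plexus, showed 10.63, 10.35 and 11.56 on hippocampal arrays 1, 2 and 3, against 7.43, 7.70 and 7.50 on cortical arrays. The difference was 3.30 (SE 0.658, adjusted p = 0.0161), and hippocampal array 3 was the high one. The SE pools the spread of the TFS arrays, which showed 11.19, 11.34 and 8.82. Its adjusted p was 0.115 without both arrays numbered 1, 0.0586 without cortical array 1 and 0.0634 without hippocampal array 3. Shisa6, an auxiliary subunit of AMPA receptors, showed 9.82, 9.74 and 9.69 in hippocampus, against 6.90, 7.07 and 7.25 in cortex, a difference of 2.67 (SE 0.0849, adjusted p = 1.72e-05). The regions lay far apart, and the mean of both rows of the gene, the other one dim, differed by 1.33. Npy2r, the Y2 receptor for neuropeptide Y, showed 7.20, 7.38 and 6.99 in hippocampus, against 4.87, 5.53 and 4.87 in cortex (difference 2.10, adjusted p = 0.000439), with all 6 values under the negative control limit. Htr5b, a serotonin receptor, showed 8.25, 8.14 and 8.30, against 5.60, 6.49 and 6.43 in cortex (2.06, adjusted p = 0.00119).

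The desmosomal plakophilin gene Pkp2 was 2.05 higher (SE 0.105), with 8.09, 8.18 and 8.02 in hippocampus, against 5.86, 6.26 and 6.03 in cortex. Cabp7, a calcium-binding protein of the calmodulin type, was 2.0 higher, the sodium-proton exchanger Slc9a4 1.98 higher, and Cpne4, a copine that binds membranes in the presence of calcium, 1.90 higher. Prox1, the homeobox factor that specifies dentate granule cells, showed 7.88, 7.88 and 8.12 in hippocampus, against 6.03, 6.10 and 6.07 in cortex, a difference of 1.89 (adjusted p = 1.82e-05). Rerg, a small GTPase of the Ras family, had the smallest SE of these genes, 0.048, at 8.78, 8.66 and 8.74 in hippocampus, against 6.83, 6.98 and 6.93 in cortex (1.81, adjusted p = 6.68e-06). Lrrc10b (2.01), the zinc finger factor St18 (1.67), the lipoprotein lipase Lpl (1.64) and the actin regulator Wipf3 (1.63) complete the group with Ndst4. Lrrc10b and St18 had both means under the negative control limit. Ndst4, a heparan sulfate sulfotransferase, showed 7.56, 7.68 and 7.50 in hippocampus, against 4.16, 5.93 and 6.28 in cortex, where array 1 was low. Its difference of 2.12 (SE 0.507, adjusted p = 0.0335) had an adjusted p of 0.121 in the paired fit. It also missed the threshold when hippocampal array 1, 2 or 3 was left out (adjusted p = 0.082, 0.106 and 0.0947) and when TFS array 1, 2 or 3 was (adjusted p = 0.0625, 0.057 and 0.0527).

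Genes furthest below cortex included a regulator of G protein signalling, receptors and cortical layer genes. Rgs4, which speeds up GTP hydrolysis on G protein alpha subunits, showed 7.81, 8.46 and 8.10 in hippocampus, against 10.69, 10.41 and 10.67 in cortex. That is a difference of -2.46 (SE 0.189, adjusted p = 0.000299), or 5.51-fold lower signal, with both means above the negative control limit. Mef2c, an activity-dependent transcription factor, showed 8.13, 8.38 and 8.50, against 10.26, 10.10 and 10.22 in cortex, 3.63-fold lower (adjusted p = 0.000104). Car10, a catalytically inactive relative of carbonic anhydrases that binds neurexins, showed 7.89, 7.95 and 7.69, against 9.71, 9.45 and 9.39 in cortex, 3.19-fold lower. Lamp5, a membrane protein of upper layer neurons and some interneurons, showed 8.91, 8.97 and 8.99, against 10.70, 10.17 and 10.48 in cortex, 2.81-fold lower. In none of these did a hippocampal array reach a cortical one, which the rule for leading genes required.

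Gfra2, the receptor for neurturin, differed by -1.90 (SE 0.134), at 7.68, 7.49 and 7.22 in hippocampus, against 9.47, 9.17 and 9.43 in cortex. Kcnh5, an ether-a-go-go potassium channel, differed by -1.91, at 6.31, 6.36 and 6.27 in hippocampus, against 8.63, 8.07 and 7.98 in cortex. Sema3a, a secreted repellent of growing axons, had the smallest SE on this side, 0.0705, and all its values were under the negative control limit, at 4.72, 4.66 and 4.89 in hippocampus, against 6.66, 6.70 and 6.55 in cortex (-1.88, adjusted p = 2.53e-05). Cckbr, the brain receptor for cholecystokinin, differed by -1.55, and Camk2d, the delta subunit of calcium/calmodulin kinase II, by -1.37. Cd34, a surface glycoprotein of vascular and blood progenitor cells, had the largest SE of the 15 lower genes, at 6.92, 6.6 and 6.53 in hippocampus, against 8.84, 7.69 and 8.22 in cortex (-1.56, SE 0.282, adjusted p = 0.0109). Tmem196 (-1.92), Exph5 (-1.63), Ephx4 (-1.57), Ipcef1 (-1.55) and Glt8d2 (-1.39) complete these 15. Exph5 and Glt8d2 had both means under the negative control limit. In the paired fit 29 of the 30 leading genes passed, all but Ndst4, and without both arrays numbered 1 also 29, all but Ttr.

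**Figure D2:**
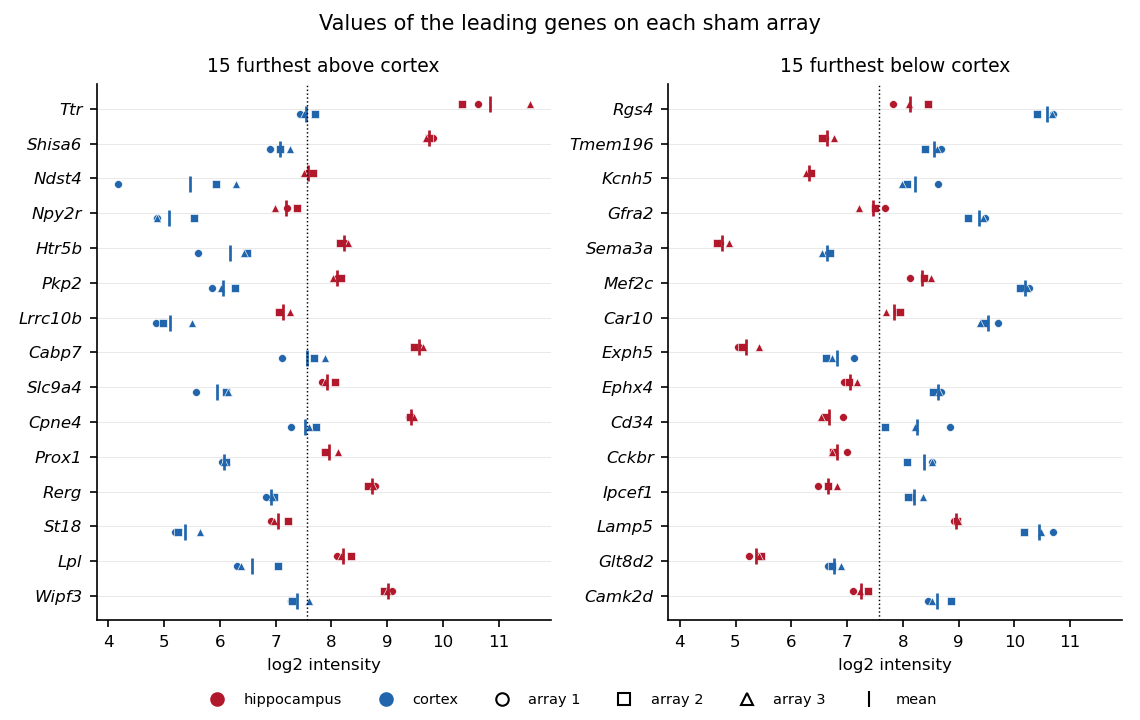
Log2 intensity of the 30 leading genes on each sham array, hippocampus in red above cortex in blue, with marker shape giving the array number, vertical ticks the region means and the dotted line the negative control limit. No hippocampal point overlaps the cortical points of its gene, as the rule for these genes required. Ttr is spread in hippocampus, and Ndst4 and Cd34 in cortex.

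Promoters of the called genes, and of those over 2-fold, were read for short motifs, since members that move together may share letters near their start. The windows are RefSeq promoters of the GRCr8 build, 250 bases before to 50 after each start, and 12158 tested genes matched one by symbol. Of the called genes over 2-fold, 42 of 66 higher and 39 of 50 lower ones had a promoter. The E-box bound by factors of the Neurod kind was searched as CAGATG on either strand, which reads CATCTG on the other. It was present in 11 of 42 promoters of genes over 2-fold higher (26.2%) and in 7 of 39 of genes over 2-fold lower (17.9%), against 11.9% of all tested genes and 16.3% of all 27457 promoters in the table. Among all called genes the E-box shares were 12.9% of higher and 12.1% of lower ones. Other motifs were searched too, given here as over 2-fold higher, over 2-fold lower and all tested. The TATA box (TATAAA) was in 9.52%, 7.69% and 7.76%, and the GC box (GGGCGG) in 50.0%, 61.5% and 58.0%. The T-box (AGGTGTGA) was in 0%, 0% and 0.979%, and the cyclic AMP response element in 2.38%, 2.56% and 2.86%. The median GC content was 56.7% in promoters of genes over 2-fold higher, 63.0% in those over 2-fold lower and 60.3% in all tested, and the part of base composition in these shares was not tested. Each match is a description of letters, not a bound site. The promoters of the 3 genes furthest above cortex that hold the E-box motif are shown with that of Rgs4, the gene furthest below, and this motif is in capitals. Npy2r lies at chr2:170203051-170203350 on the minus strand, Slc9a4 at chr9:50320698-50320997 and Epha6 at chr11:53226534-53226833 on the plus strand, and Rgs4 at chr13:84475835-84476134 on the minus strand. The motif starts at base 23 after the start in Npy2r, and 18, 51 and 74 bases before it in Slc9a4, Epha6 and Rgs4.
Npy2r: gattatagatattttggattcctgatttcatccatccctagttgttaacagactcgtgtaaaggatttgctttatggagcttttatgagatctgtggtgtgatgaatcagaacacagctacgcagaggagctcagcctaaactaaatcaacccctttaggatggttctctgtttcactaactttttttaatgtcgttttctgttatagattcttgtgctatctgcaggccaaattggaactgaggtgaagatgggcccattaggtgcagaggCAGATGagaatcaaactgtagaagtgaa
Slc9a4: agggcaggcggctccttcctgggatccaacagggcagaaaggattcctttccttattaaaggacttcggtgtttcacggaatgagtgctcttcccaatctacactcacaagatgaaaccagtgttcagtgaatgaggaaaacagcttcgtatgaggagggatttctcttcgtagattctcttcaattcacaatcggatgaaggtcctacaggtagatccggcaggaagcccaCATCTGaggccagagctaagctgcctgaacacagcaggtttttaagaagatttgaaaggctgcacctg
Epha6: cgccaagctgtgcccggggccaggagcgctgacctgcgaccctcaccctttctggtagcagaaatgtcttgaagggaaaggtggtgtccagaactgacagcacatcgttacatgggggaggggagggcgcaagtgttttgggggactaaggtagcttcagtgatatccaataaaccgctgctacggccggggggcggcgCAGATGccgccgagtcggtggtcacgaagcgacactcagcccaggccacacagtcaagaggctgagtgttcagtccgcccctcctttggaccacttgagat
Rgs4: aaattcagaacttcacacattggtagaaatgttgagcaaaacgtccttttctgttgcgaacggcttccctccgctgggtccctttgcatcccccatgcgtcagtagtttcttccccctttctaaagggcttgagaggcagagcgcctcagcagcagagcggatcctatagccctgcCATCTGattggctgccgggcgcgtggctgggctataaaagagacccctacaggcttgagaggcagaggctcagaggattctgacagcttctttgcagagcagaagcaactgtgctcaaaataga

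Dentate granule genes included Prox1. Of 14 tested members 6 were higher, 1 was lower and 7 were not called, with a median difference of 0.202, beside -0.00441 for all genes tested. In the paired fit 4 were higher and 1 lower. Besides Prox1, the exchange factor Dock10 showed 8.07, 8.13 and 8.50, against 6.38, 6.90 and 6.84 in cortex (difference 1.53). C1ql2, a secreted C1q-like protein of mossy fibre synapses, showed 8.67, 8.69 and 8.89, against 7.28, 7.31 and 7.62 in cortex (1.35, adjusted p = 0.000262). Sema5a, a transmembrane semaphorin, was 0.69 higher. The transcription factor Rfx3 was 0.77 higher, with an adjusted p of 0.088 in the paired fit and 0.057 without both arrays numbered 1, and C1ql3 was 0.55 higher, with an adjusted p of 0.0599 in the paired fit. The member that was lower, Gsg1l, an AMPA receptor auxiliary subunit, showed 6.70, 6.66 and 6.68, against 7.35, 7.26 and 7.07 in cortex (-0.55). Not called were Stxbp6 (0.23), Fam163b (0.18), Glis3 (0.07), Dsp (0.06), Trpc6 (0.03), Plk5 (-0.03) and Npnt (-0.11), and Tdo2 and Lct were below the signal filter.

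Genes of the CA fields were higher or not called, and none was lower. Of 13 tested members 8 were higher, in the paired fit also 8, and the median difference was 0.389. After Cpne4, the mineralocorticoid receptor Nr3c2 showed 8.87, 8.87 and 8.96, against 7.29, 7.49 and 7.59 in cortex (1.44, adjusted p = 7.03e-05). Fibcd1, a CA1 gene for a membrane receptor of acetylated ligands, was 1.26 higher, and Grik4, the kainate receptor subunit of CA3, 0.97 higher, at 8.06, 8.15 and 8.15, against 7.13, 7.10 and 7.24 in cortex. Gpr161, an orphan receptor of the primary cilium, was 0.59 higher, and Rgs14, a regulator of G protein signalling concentrated in CA2, 0.41 higher. The apoptosis gene Bok (0.33) and the CA2 and CA3 adhesion gene Amigo2 (0.31) were also higher. Pou3f1 (0.39), Man1a1 (0.39), Wfs1 (0.20), Hunk (0.19) and Cacng5 (0.01) were not called. Spink8, Map3k15 and Iyd were below the signal filter.

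Upper layer genes of neocortex included several of the genes furthest below. Of 14 tested, 8 were lower and 1 higher, with a median of -0.314, and in the paired fit 7 were lower and 0 higher. With Kcnh5, Mef2c and Lamp5 already given, the homeobox factors of upper layers followed. Cux2 showed 6.74, 6.77 and 6.82, against 7.86, 7.56 and 7.63 in cortex (-0.90, adjusted p = 0.000434), and Cux1 7.28, 7.41 and 7.41, against 8.30, 8.10 and 8.03 (-0.77). The LIM-only factor Lmo4 (-0.32) and the scaffold gene Whrn (-0.31) were lower by less. Rorb, the orphan nuclear receptor of layer 4, differed by -0.61 (adjusted p = 0.0221), with an adjusted p of 0.154 in the paired fit and 0.126 without both arrays numbered 1. It was also lost without cortical array 1 or 2 (0.0563 and 0.0564) and without hippocampal array 1 or 2 (0.0702 and 0.0743). The exchange factor Rasgrf2 was the higher one, at 0.51, with an adjusted p of 0.0729 in the paired fit. Nectin3 (0.17), Scnn1a (-0.02), Calb1 (-0.07), Rspo1 (-0.12) and Otof (-0.15) were not called.

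Deep layer genes went both ways. Of 19 tested, 7 were lower and 3 higher, with a median of -0.243, and in the paired fit 3 were lower and 1 higher. Tbr1, the T-box factor of layer 6 projection neurons, showed 7.92, 8.07 and 8.17, against 9.27, 9.07 and 9.42 in cortex (-1.2, adjusted p = 0.000393), and Foxp2, a forkhead factor, 4.79, 4.76 and 4.82, against 5.41, 5.45 and 5.50 (-0.66). Bcl11b, the zinc finger factor that marks subcerebral neurons in cortex and is also made in dentate granule and CA1 cells, ran the other way at 8.56, 8.46 and 8.65, against 7.37, 7.66 and 7.64 in cortex (1.0, adjusted p = 0.000459). Its other rows, both dimmer, differed by -0.17 and 0.09, and the mean of its rows by 0.31. Rprm differed by -0.52, with an adjusted p of 0.069 without both arrays numbered 1. Crym (0.79), Sulf2 (0.44), Cplx3 (-0.70) and Parm1 (-0.52) lost their calls in the paired fit (adjusted p = 0.0895, 0.0576, 0.0867 and 0.0563). Without both arrays numbered 1 the last 3 had 0.0503, 0.0556 and 0.0771, and Parm1 had 0.0612 without cortical array 1. Deptor (-0.32) and Ccn2 (-0.26) were called as well, with adjusted p of 0.0712 and 0.186 in the paired fit. As the mean of its rows Deptor differed by -0.18 (adjusted p = 0.0628). Deptor had 0.126 without both arrays numbered 1 and missed the threshold without cortical array 1 or 3 or hippocampal array 1 or 2 (up to 0.0628). Ccn2 missed it without cortical array 2 or 3 or hippocampal array 2 or 3 (up to 0.0915). Fezf2, the selector of subcerebral neurons, differed by -0.12 and was not called. Nor were Nr4a2 (0.09), Etv1 (0.05), Pcp4 (-0.04), Tle4 (-0.09), Nxph4 (-0.16), Syt6 (-0.24), Ntsr1 (-0.38) and Tshz2 (-0.61).

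**Figure D3:**
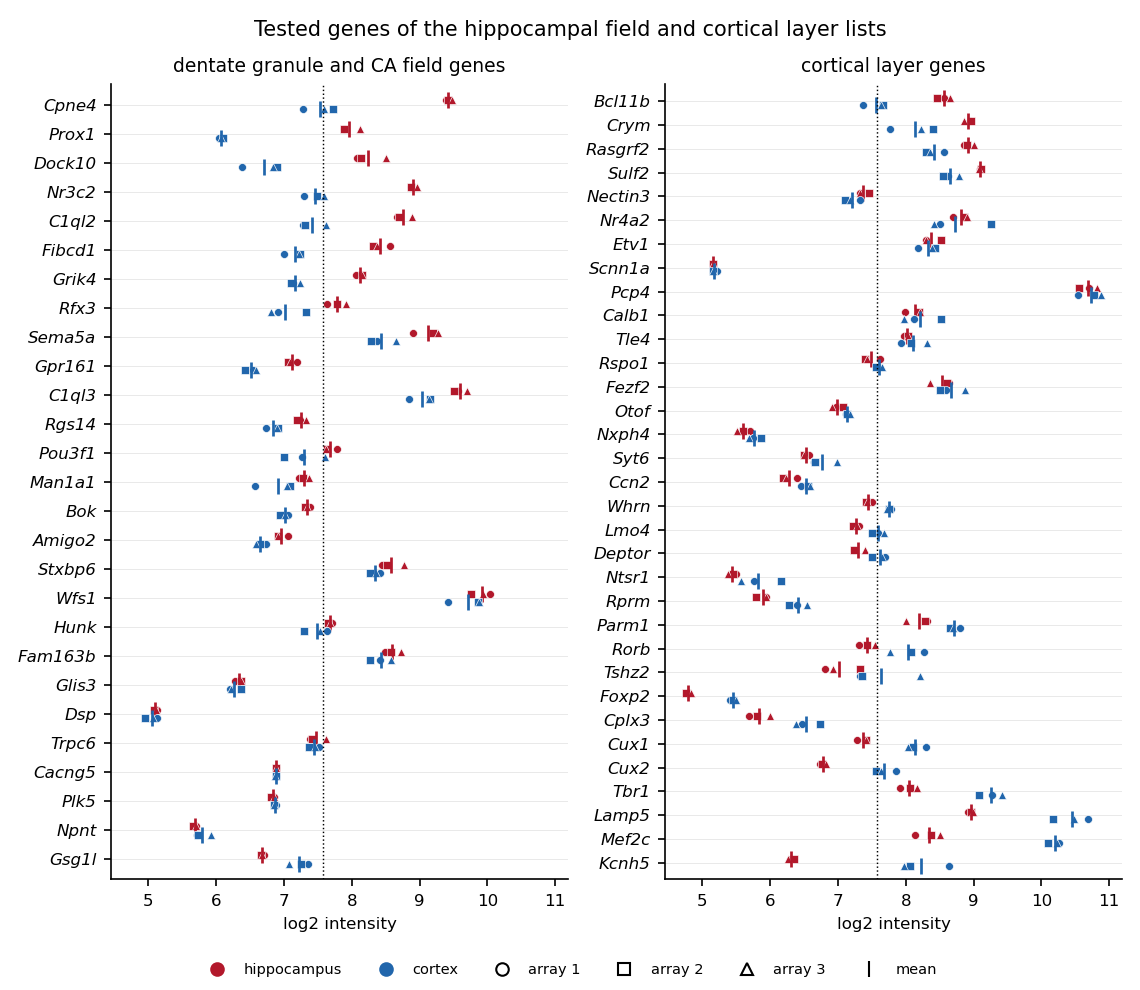
Log2 intensity of the tested dentate granule and CA field genes (left) and cortical layer genes (right) on each sham array, sorted by difference, hippocampus in red above cortex in blue, with symbols for array numbers and ticks for means. Cpne4 and Prox1 lead the left panel, and Kcnh5, Mef2c and Lamp5 stand at the bottom of the right panel, where Bcl11b at the top runs the other way.

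Transcription factors with regional expression in the forebrain were called in 29 of 41 cases, beside 12.4% of all genes. Of these 13 were higher and 16 lower, and in the paired fit 7 were higher and 10 lower. The basic helix-loop-helix factor Neurod1 showed 7.84, 7.78 and 7.93, against 7.11, 7.04 and 6.80 in cortex (0.86), and the related Neurod6 was 1.02 higher, with an adjusted p of 0.0587 in the paired fit. Lhx9, a LIM homeobox factor, was 0.79 higher at 5.91, 5.92 and 5.97, against 5.11, 5.11 and 5.20 in cortex, all under the negative control limit. Satb1, a chromatin organiser, differed by -0.81, with an adjusted p of 0.0637 in the paired fit and 0.0529 without both arrays numbered 1. Among 14 genes of adult neurogenesis 4 were higher and 2 lower, with 3 and 1 in the paired fit. Nhlh1, a helix-loop-helix factor of young neurons, was 1.2 higher, at 6.21, 5.94 and 6.14, against 4.88, 4.84 and 4.95 in cortex. Hopx, a homeodomain protein of radial glia and astrocytes, differed by -0.53, and the microtubule regulator Stmn1 by -0.58, with an adjusted p of 0.0502 in the paired fit. The proliferation genes Mki67, Top2a and Cdk1 were below the signal filter.

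AMPA receptors are tetramers of Gria subunits whose trafficking and kinetics depend on auxiliary proteins, and here the auxiliary genes split. Of 14 tested genes 4 were higher and 4 lower, with a median of -0.0908, and in the paired fit 3 were higher and 3 lower. Gria1, the subunit inserted in long-term potentiation, showed 10.33, 10.33 and 10.43, against 8.99, 9.25 and 9.28 in cortex, 2.28-fold higher (adjusted p = 0.000231). Cnih2, a cornichon that slows channel closing, showed 9.32, 9.29 and 9.31, against 8.29, 8.59 and 8.52 in cortex (0.84), beside Shisa6 at 2.67. The TARP gene Cacng3 ran the other way, at 9.79, 9.84 and 9.83, against 10.81, 10.71 and 10.75 in cortex (-0.94, adjusted p = 0.000104), as did Gsg1l. Gria4 differed by -0.33, with an adjusted p of 0.126 without both arrays numbered 1, 0.0546 without cortical array 1 and 0.0561 without hippocampal array 3. Cacng2 differed by -0.38 and Shisa7 by 0.15, with adjusted p of 0.172 and 0.0692 in the paired fit and 0.0529 and 0.0603 without both arrays numbered 1. Cacng2 also missed the threshold without any 1 hippocampal array, sham or TFS, or without cortical array 3 (adjusted p up to 0.0958). Shisa7 missed it without any 1 cortical array (up to 0.0673). Gria3 (-0.23), Cnih3 (-0.17), Cacng7 (-0.12), Cacng4 (-0.06), Shisa9 (-0.01) and Cacng5 (0.01) were not called. Gria2 had no row with its symbol alone and is not analysed here.

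Kainate receptor genes also split, 3 higher and 2 lower of 7 tested, with 3 and 1 in the paired fit. Beside Grik4, the auxiliary gene Neto1 showed 9.48, 9.83 and 9.58, against 8.78, 8.91 and 8.73 in cortex (0.82, adjusted p = 0.00105). Its relative Neto2 differed by -0.54, with an adjusted p of 0.0531 in the paired fit, 0.0745 without both arrays numbered 1 and 0.0505 without hippocampal array 2. Grik2 was 0.40 higher, with an adjusted p of 0.0733 without both arrays numbered 1. Grik3 showed 7.31, 7.32 and 7.42, against 8.02, 7.95 and 8.25 in cortex (-0.72). Its other rows, both dimmer, differed by -0.16 and 0.22, the second one at an unadjusted p of 0.0304, and the mean of its rows differed by -0.22. Grik1 (0.05) and Grik5 (0.00) were not called, and for Grik5 every array but cortical array 3 had the same value.

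NMDA receptor genes differed by less. Of 7 tested, 3 were higher and 1 lower, with 2 and 0 in the paired fit. The modulatory subunits Grin2a, at 9.89, 9.89 and 9.98, against 9.58, 9.38 and 9.50 in cortex (0.43), and Grin2b, at 10.45, 10.46 and 10.46, against 10.27, 10.20 and 10.18 in cortex (0.24), were higher. The obligatory subunit Grin1 differed by -0.10 and Grin2c by 0.10, and in the paired fit their adjusted p was 0.194 and 0.202. Without both arrays numbered 1 it was 0.191 and 0.185, and both genes missed the threshold without any 1 array other than cortical array 2 (adjusted p up to 0.153 and 0.149). Grin3a (0.13), Grin2d (0.04) and Grin3b (-0.00198) were not called. Of 7 metabotropic glutamate receptors 1 was higher and 2 lower, with 0 and 2 in the paired fit. The presynaptic receptors Grm8, at 5.64, 5.66 and 5.68, against 6.05, 6.21 and 6.33 in cortex (-0.54), and Grm4 (-0.41) were lower. The postsynaptic Grm5 was 0.27 higher, with an adjusted p of 0.0543 in the paired fit, 0.0513 without cortical array 3, and 0.0663 and 0.0658 without hippocampal arrays 2 and 3. Grm6 (0.11), Grm7 (-0.04), Grm3 (-0.14) and Grm2 (-0.18) were not called.

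GABA receptor subunits were called for 7 of 11 tested genes, 3 higher and 4 lower, and the paired fit also called 3 higher and 4 lower, though Gabra5 and Gabbr2 were not among them. Gabrb1 showed 9.56, 9.79 and 9.72, against 8.74, 9.09 and 8.85 in cortex (0.80, adjusted p = 0.00217). Gabra5, the alpha subunit of extrasynaptic receptors in CA1 pyramidal cells, showed 9.74, 9.73 and 9.78, against 8.38, 8.94 and 8.95 in cortex (0.99), with an adjusted p of 0.0563 in the paired fit. Gabra2 was 0.72 higher and Gabrb2 differed by -0.69, with adjusted p of 0.0573 and 0.0748 without both arrays numbered 1. Gabra3 showed 7.82, 8.0 and 7.63, against 8.70, 9.05 and 9.02 in cortex (-1.11, adjusted p = 0.00138). Gabrd, the delta subunit of tonic inhibition, showed 6.39, 6.21 and 6.44, against 7.31, 7.08 and 7.25 in cortex (-0.87). Gabbr2, a subunit of the metabotropic GABA-B receptor, differed by -0.30 (-0.15 as the mean of its rows), with an adjusted p of 0.0892 in the paired fit, and its partner Gabbr1 (0.08) was not called, nor were Gabrg1 (0.38), Gabrg3 (-0.21) and Gabra4 (-0.24).

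**Figure D4:**
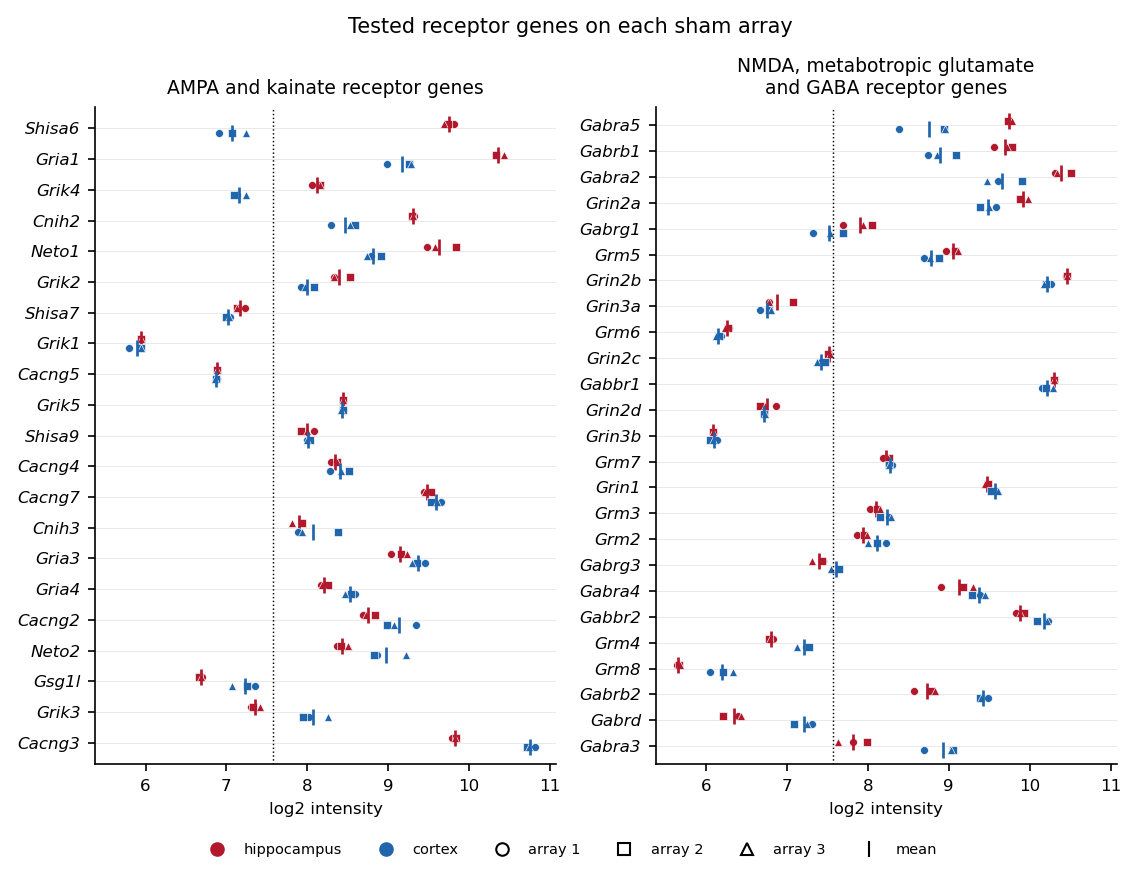
Log2 intensity of the tested ionotropic and metabotropic glutamate receptor genes with their auxiliary genes and of GABA receptor genes on each sham array, sorted by difference, hippocampus in red above cortex in blue. Shisa6 and Gria1 stand at the top of the left panel and Cacng3 at the bottom, and Gabra5 and Gabra3 stand at the ends of the right panel.

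Receptors for serotonin, catecholamines and acetylcholine were counted apart. Of 10 serotonin receptors 4 were higher and 2 lower, with 2 higher and 2 lower in the paired fit. After Htr5b, the inhibitory receptor Htr1a showed 8.08, 8.08 and 8.15, against 6.91, 7.03 and 6.64 in cortex (1.24, adjusted p = 0.00038). Htr2c, a receptor that choroid plexus also makes in quantity, showed 8.11, 8.08 and 8.15, against 5.92, 7.14 and 6.58 in cortex (1.56), with an adjusted p of 0.079 in the paired fit and 0.0581 without both arrays numbered 1. Htr4 was 0.88 higher, with an adjusted p of 0.0505 in the paired fit. Htr2a, the receptor of cortical pyramidal cells, showed 6.72, 6.85 and 6.35, against 7.75, 7.68 and 7.24 in cortex (-0.92, adjusted p = 0.0202). It was lost without both arrays numbered 1 (0.128) and without cortical array 1 or 2 or hippocampal array 1 or 3 (up to 0.0738). Of 11 catecholamine receptors 2 were lower and 0 higher, with 1 in the paired fit. Adra1b differed by -0.78, and Adrb1 by -0.66 with an adjusted p of 0.0511 in the paired fit and 0.0611 without both arrays numbered 1. Of 12 acetylcholine receptors 2 were higher and 3 lower, with 2 and 1 in the paired fit. The muscarinic receptor Chrm5 was 1.19 higher at low signal, 5.77, 5.66 and 5.56, against 4.21, 4.60 and 4.61 in cortex, and the nicotinic subunit Chrna7 0.55 higher at 8.11, 8.26 and 8.09, against 7.54, 7.71 and 7.54. The nicotinic subunit Chrna4 was lower, at 6.83, 6.92 and 6.73, against 7.92, 7.74 and 8.01 in cortex (-1.06).

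Potassium channel genes were more often lower than higher. Of 62 tested, 25 were lower and 10 higher, with a median of -0.158, and in the paired fit 16 were lower and 5 higher. After Kcnh5, the auxiliary protein Dpp10 of A-type channels showed 6.68, 7.05 and 6.83, against 8.15, 8.17 and 8.19 in cortex (-1.32). The silent subunits Kcnv1, at 7.26, 7.44 and 7.55, against 8.77, 8.47 and 8.69 in cortex (-1.23), and Kcnf1 (-0.94) were also lower. Kcnip2, a calcium-binding partner of A-type channels, was 0.80 higher, with an adjusted p of 0.0572 in the paired fit. The inward rectifier Kcnj6 (0.53) and the beta subunit Kcnab2 (0.44) were higher too. Of 26 sodium, calcium and HCN channel genes 5 were higher and 7 lower, with 3 and 2 in the paired fit. Scn3b, a sodium channel beta subunit, showed 10.29, 10.29 and 10.38, against 8.96, 9.09 and 9.26 in cortex, 2.32-fold higher (adjusted p = 0.000115). The T-type calcium channel Cacna1h was 0.72 higher, at 8.19, 8.12 and 8.12, against 7.35, 7.41 and 7.51 in cortex, and the L-type Cacna1c 0.37 higher. Among lower ones, Scn1a differed by -0.77 and Cacnb4 by -0.67, with adjusted p of 0.112 and 0.0748 in the paired fit. Scn1a had 0.0515 without both arrays numbered 1. Cacnb3 differed by -0.26.

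Among neuropeptides and secreted synaptic proteins, 11 of 31 tested were lower, 2 were higher and 18 were not called, with 7 and 2 in the paired fit. Vip, the peptide of one interneuron class, showed 5.89, 6.03 and 5.95, against 6.97, 6.98 and 6.99 in cortex (-1.02, adjusted p = 2.5e-05), all under the negative control limit. Cbln2, a cerebellin that links pre- and postsynaptic membranes, showed 6.09, 6.08 and 5.94, against 7.48, 6.96 and 7.35 in cortex (-1.22). The peptide Adcyap1 (-0.90) and the binding protein Crhbp (-0.69) were lower, and Penk, the enkephalin precursor, differed by -0.92 with an adjusted p of 0.06 in the paired fit. The pentraxin Nptx1 was higher, at 9.68, 9.68 and 9.75, against 9.00, 8.83 and 9.11 in cortex (0.73), and the granin Scg2 0.50 higher. Of 23 interneuron genes 5 were lower and 1 higher, with 2 and 0 in the paired fit. Sst, the somatostatin gene, showed 9.34, 9.23 and 9.17, against 9.89, 9.91 and 9.87 in cortex (-0.64, adjusted p = 0.000222). Npy (-0.57) and the calcium-binding gene Pvalb (-0.62) had adjusted p of 0.0545 and 0.0895 in the paired fit. Npy was lost without hippocampal array 2 (0.0523), and Pvalb without both arrays numbered 1 (0.076) and without any 1 array other than cortical array 2 (up to 0.122). Of 28 peptide receptors 3 were higher and 4 lower, with 1 and 4 in the paired fit. Beside Npy2r and Cckbr, the delta opioid receptor Oprd1 differed by -0.21. The Y1 receptor Npy1r and the somatostatin receptor Sstr1 differed by -0.37 and -0.56, with adjusted p of 0.0742 and 0.0616 without both arrays numbered 1.

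Axon guidance genes were more often higher, 21 against 7 lower among 60 tested, with a median of 0.0771 and 12 and 4 in the paired fit. Epha6, an ephrin receptor kinase, showed 9.38, 9.43 and 9.45, against 7.54, 8.11 and 7.96 in cortex, 2.94-fold higher (adjusted p = 0.000553). The semaphorin co-receptors Nrp2, at 8.43, 8.56 and 8.56, against 6.71, 7.46 and 7.27 in cortex (1.37), and Nrp1, at 8.29, 8.37 and 8.43, against 7.21, 7.37 and 7.57 (0.98), were higher, as was Epha7 (1.15). The netrin receptor Dcc was 0.97 higher (0.53 as the mean of its rows), with an adjusted p of 0.067 in the paired fit and 0.0603 without both arrays numbered 1. Ligands were called in both directions, with Slit2 0.66 higher and Sema3a lower. The ephrin Efna5 showed 6.05, 6.06 and 6.03, against 7.43, 7.07 and 7.37 in cortex (-1.24, adjusted p = 0.000231, and -0.73 as the mean of its rows), the semaphorin Sema3f differed by -0.36, and the ephrin Efnb2 by -0.81 with an adjusted p of 0.0563 in the paired fit. The semaphorin receptor Plxnd1 was lower as well, at 6.71, 6.71 and 6.72, against 7.45, 7.61 and 7.35 in cortex (-0.76).

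Cadherins and synaptic adhesion genes were more often lower, 18 against 6 higher among 48 tested, with 11 and 2 in the paired fit and a median of -0.116. Cdh6 showed 7.18, 7.27 and 7.26, against 8.58, 8.20 and 8.43 in cortex (-1.17), Cdh7 5.27, 5.26 and 5.27, against 6.47, 6.16 and 6.46 (-1.09), and the synaptic leucine-rich repeat gene Lrrtm3 6.95, 7.17 and 7.14, against 8.08, 7.98 and 8.15 (-0.98). The contactin Cntn3 differed by -0.82. On the higher side, Cdh9, a cadherin of dentate to CA3 synapses, was 1.37 higher and the protocadherin Pcdh19 1.18 higher, with adjusted p of 0.0612 and 0.06 in the paired fit, and Pcdh17 was 0.66 higher. Cdh9 showed 6.55, 6.67 and 6.77, against 5.09, 5.81 and 5.00 in cortex, all under the negative control limit. The families thus held members of large difference in both directions.

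Among 34 genes of corticosteroid, neurotrophin and other growth factor signalling 8 were higher and 5 lower, with 8 and 1 in the paired fit. Nr3c2 and Gfra2, given above, stood at the ends. The fibroblast growth factor receptor Fgfr1 showed 8.88, 8.96 and 8.98, against 7.95, 8.07 and 8.20 in cortex, 1.82-fold higher (adjusted p = 0.00018). The GDNF receptor Gfra1 was 0.77 higher, at 8.0, 7.96 and 8.04, against 7.06, 7.41 and 7.22 in cortex, so the related receptors Gfra1 and Gfra2 differed in opposite directions. The neurotrophin Ntf3 was 0.76 higher, at 6.36, 6.31 and 6.43, against 5.48, 5.60 and 5.75 in cortex, and Fgfr2 0.36 higher. Ntrk2, the receptor for BDNF, differed by -0.12, with an adjusted p of 0.113 in the paired fit. Of 40 genes of Wnt, BMP and TGF-beta signalling 4 were higher and 2 lower, with 3 and 0 in the paired fit, which is 15% called beside 12.4% of all genes. Rspo2, a secreted enhancer of Wnt signalling, showed 7.61, 7.68 and 7.70, against 5.92, 6.11 and 6.19 in cortex (1.59, adjusted p = 5.02e-05), and the ligand Wnt4 was 0.63 higher.

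Immediate early genes, which neurons transcribe within minutes of activity, were lower in most cases called. Of 27 tested, 11 were lower and 2 higher, beside 6.46% and 5.99% of all genes, with a median of -0.26, and in the paired fit 5 were lower and 1 higher. Dusp1, a phosphatase of MAP kinases, showed 6.69, 6.74 and 6.87, against 8.10, 7.75 and 8.29 in cortex (-1.28, adjusted p = 0.00145). The zinc finger factor Egr1 showed 8.46, 8.46 and 8.38, against 9.75, 9.36 and 9.51 in cortex, 2.15-fold lower (adjusted p = 0.00037). Egr2 (-0.83), Ier5 (-0.75) and the nuclear receptor Nr4a1 (-0.68) followed, with adjusted p of 0.07, 0.06 and 0.0891 in the paired fit, and Ier5 and Nr4a1 had 0.0568 and 0.069 without both arrays numbered 1. Its relative Nr4a3 was 0.47 higher, with an adjusted p of 0.103 in the paired fit, 0.105 without both arrays numbered 1, and 0.052 and 0.0586 without cortical array 1 and hippocampal array 2. The cyclic AMP response element was searched as TGACGTCA, which reads the same on both strands. It was in 3 of 20 immediate early promoters (15%), against 2.86% of all tested genes, and of these 3 only Dusp1 was called. Of the other motifs searched, the TATA box was in 20% of the 20, against 7.76% of all tested, and the GC box in 55%, against 58%. The E-box was in 5%, against 11.9%, and the T-box in 0%, against 0.979%. The Dusp1 window, chr10:17184603-17184902 on the plus strand of GRCr8, is shown since it is the called one, with the element in capitals, starting 124 bases before the start.
Dusp1: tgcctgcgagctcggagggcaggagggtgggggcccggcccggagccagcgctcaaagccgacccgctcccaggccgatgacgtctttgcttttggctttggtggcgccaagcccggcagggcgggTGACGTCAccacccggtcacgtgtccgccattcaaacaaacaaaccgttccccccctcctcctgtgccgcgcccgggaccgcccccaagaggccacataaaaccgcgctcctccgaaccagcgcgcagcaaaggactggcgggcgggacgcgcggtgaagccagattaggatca

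Postsynaptic signalling genes were called often in both directions, 10 higher and 14 lower of 35, with 6 and 7 in the paired fit. Kinase genes were called in both directions. The protein kinase C genes Prkca, at 10.01, 10.10 and 10.01, against 9.52, 9.42 and 9.43 in cortex (0.58), and Prkce (0.50) were higher, while Camk2d was lower. The kinase II inhibitor Camk2n1 was lower, at 10.47, 10.49 and 10.60, against 11.52, 11.53 and 11.45 in cortex (-0.98, adjusted p = 2.8e-05). Hpca, the calcium sensor hippocalcin, showed 8.89 on all 3 hippocampal arrays, against 8.22, 8.14 and 8.25 in cortex (0.69), and the dendritic adhesion molecule Icam5 was 0.59 higher. The scaffold Homer3 was 0.51 higher, the scaffold Dlg1 differed by -0.62, and Homer1 differed by -0.57 with an adjusted p of 0.0888 in the paired fit and 0.0771 without both arrays numbered 1. Release machinery was more often lower, 14 against 4 higher of 40, with 9 and 1 in the paired fit and a median of -0.156. The membrane SNARE Stx1a showed 8.12, 8.14 and 8.11, against 9.12, 8.99 and 9.15 in cortex, 1.95-fold lower (adjusted p = 0.000104). The fast calcium sensor Syt2 (-1.22), the active zone gene Rims3 (-1.09) and the Rab effector Rph3a (-0.60) were lower as well, and the vesicular glutamate transporter Slc17a8 was 0.25 higher.

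Of 37 genes of cyclic nucleotide and G protein regulation 11 were lower and 3 higher, with 5 and 1 in the paired fit. RGS genes differed in direction. Rgs4 was the furthest below, Rgs6 showed 6.87, 6.98 and 6.95, against 8.19, 7.83 and 8.10 in cortex (-1.10), and Rgs14 was 0.41 higher. The phosphodiesterase Pde8b, at 7.34, 7.47 and 7.6, against 8.34, 8.17 and 8.42 in cortex (-0.84), and the kinase A regulatory subunit Prkar2b, at 7.09, 7.24 and 7.31, against 7.99, 7.89 and 8.04 (-0.76), were lower. Of 28 extracellular matrix genes 7 were higher and 1 lower, with 5 and 2 in the paired fit. Beside Ndst4, the glypican Gpc1 was 0.57 higher, at 8.34, 8.26 and 8.36, against 7.73, 7.65 and 7.88 in cortex, and the link protein Hapln2 0.34 higher. Hs3st2, another heparan sulfate sulfotransferase, ran the other way, at 6.83, 6.66 and 6.57, against 7.63, 7.55 and 7.69 in cortex (-0.93, adjusted p = 0.000193). Of 78 oxidative phosphorylation genes 3 were lower and 0 higher, a share of 3.85%, beside 12.4% of all genes, and 0 of 13 housekeeping genes were called. In the paired fit 0 oxidative phosphorylation genes passed.

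The naming rule took 187 called members of the gene lists other than microRNA genes, and 84 of them missed the threshold in 1 or more of 11 refits, the paired fit, the one without both arrays numbered 1 and 9 that left out 1 array. These numbered 70 in the paired fit, 56 without both arrays numbered 1, and 33, 28 and 23 without sham hippocampal array 2, 3 or 1. Without cortical array 1, 2 or 3 they numbered 23, 10 and 20, and without TFS array 1, 2 or 3 they numbered 16, 13 and 14. The members not yet named all belong to the 84, and each is given with its difference and its highest adjusted p over the refits. Among receptors, Chrm2 differed by -0.67 (0.142), Chrna3 by -0.34 (0.111), Htr5a by -0.25 (0.211), Grpr by 0.66 (0.097) and Adcyap1r1 by 0.29 (0.0747). As the mean of its rows Htr5a differed by -0.15. Among channels, Kcnh7 differed by -0.89 (0.0672), Kcnj16 by 0.45 (0.145), Kcnab1 by 0.43 (0.0954), Scn4b by -0.56 (0.0914), Cacna1g by -0.28 (0.194), Cacna1e by 0.34 (0.0646) and Cacnb2 by 0.28 (0.0891). Among interneuron and adhesion genes, Adarb2 differed by 0.35 (0.146), Crh by -0.28 (0.13), Pcdh11x by -0.75 (0.0757), Pcdh20 by 0.28 (0.128) and Slitrk3 by 0.27 (0.11). Among growth factor, Wnt and BMP genes, Fgf12 differed by -0.47 (0.0506), Nrg1 by -0.28 (0.0878), Fgf14 by -0.23 (0.174), Wnt7b by 0.63 (0.165), Chrd by 0.18 (0.105), Sfrp4 by -0.34 (0.114) and Fzd3 by -0.28 (0.164). Among signalling genes, Camk4 differed by -0.62 (0.109), Adcy8 by -0.54 (0.0925), Rgs8 by 0.24 (0.0994), Adcy3 by 0.18 (0.0544) and Dusp4 by 0.24 (0.156). Among release genes, Doc2b differed by 0.62 (0.0897), Cplx2 by 0.21 (0.145) and Syn2 by 0.19 (0.115). Among matrix and neurogenesis genes, Hapln4 differed by 0.41 (0.0559), Vcan by 0.28 (0.0525), Igfbpl1 by 0.39 (0.132) and Dpysl3 by 0.22 (0.144). The 3 oxidative phosphorylation genes were Cox6a2 (-0.53, 0.128), Ndufs3 (-0.14, 0.0867) and Atp5pf (-0.09, 0.0913).

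**Figure D5:**
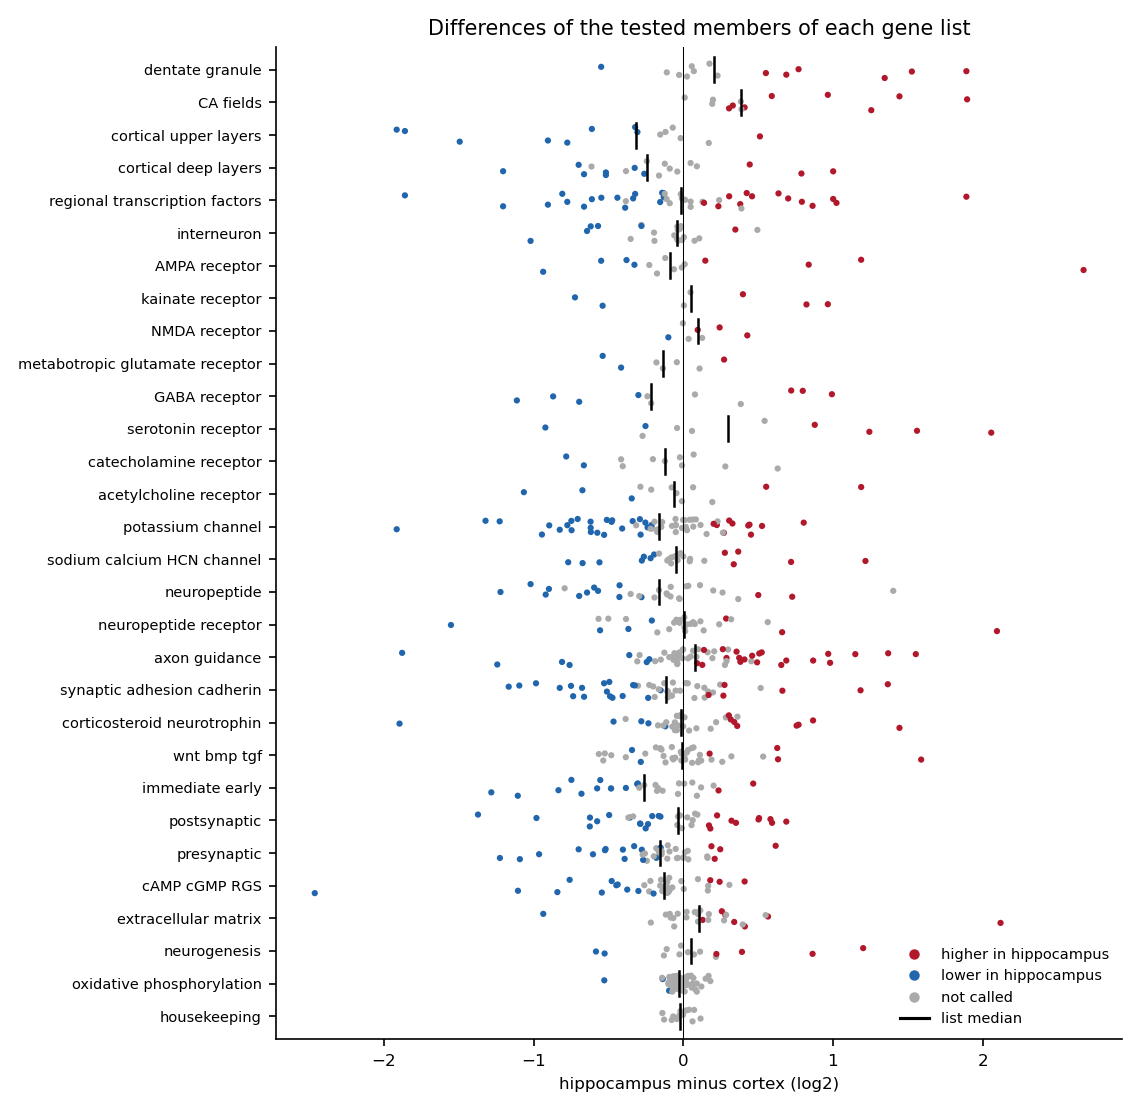
Difference, hippocampus minus cortex on the log2 scale, of every tested member of each gene list, 1 row per list and 1 point per gene, with members called higher in red and lower in blue and the list median as a black bar. Medians lie above 0 for dentate granule and CA field genes and below 0 for cortical layer, potassium channel, immediate early and presynaptic genes, while oxidative phosphorylation and housekeeping genes cluster near 0.

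Of 154 microRNA genes tested 5 were called, 1 higher and 4 lower (3.25%, beside 12.4% of all genes). The rows read the transcript cluster of the gene and do not measure the mature microRNA. Mir218-1 showed 5.51, 5.63 and 5.62, against 5.08, 5.31 and 5.04 in cortex (0.45, adjusted p = 0.0396), with an adjusted p of 0.0504 in the paired fit and 0.164 without both arrays numbered 1. It also missed the threshold without cortical array 1 or 3, any 1 sham hippocampal array or TFS array 2 (up to 0.127). It lies inside Slit2, the secreted guidance ligand, which was itself 0.66 higher at 7.78, 7.98 and 7.74, against 7.12, 7.32 and 7.10 in cortex (adjusted p = 0.00234). Mir219a1 showed 6.19, 6.18 and 6.07, against 6.43, 6.40 and 6.33 in cortex (-0.24, adjusted p = 0.0073). Mir1193 (-0.25), Mir3542 (-0.15) and Mir3577 (-0.22) were also called lower, with adjusted p of 0.152, 0.136 and 0.118 without both arrays numbered 1, and Mir1193 and Mir3542 had 0.18 and 0.147 in the paired fit. Each also missed the threshold without cortical array 1 (adjusted p = 0.0834, 0.0685 and 0.0604), Mir1193 without cortical array 2 or hippocampal array 1 or 2 (up to 0.0792), and Mir3542 without cortical array 3 or hippocampal array 1 or 3 (up to 0.0722). For the microRNA gene called higher, 1 mature RefSeq sequence is shown, and its other one, rno-miR-218a-1-3p, is left out. For the lower one that passed in every one of these refits, Mir219a1, the only mature sequence held under its symbol is shown. The seed, bases 2 to 8, is in capitals. The higher one is at chr14:66922413-66922433 on the minus strand of GRCr8 and the lower one at chr20:4831641-4831662 on the plus strand.
rno-miR-218a-5p: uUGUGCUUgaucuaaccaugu
rno-miR-219a-1-3p: aGAGUUGCgucuggacgucccg

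Cell type markers bear on how the tissues were composed. Of 12 general neuron markers 2 were higher and 2 lower, with 0 and 0 in the paired fit, and their summed level, the log2 of the sum of member intensities, was 14.305 to 14.334 in hippocampus and 14.31 to 14.385 in cortex. All 18 oligodendrocyte markers lay above 0, with a median of 0.39, and 4 were called higher, Mobp (0.44), Olig1 (0.40), Myrf (0.40) and Bcas1 (0.39). None of the 4 passed in the paired fit (adjusted p = 0.083, 0.149, 0.166 and 0.0696) or without both arrays numbered 1 (0.0986, 0.163, 0.151 and 0.122), and each missed the threshold without cortical array 1 or hippocampal array 2 or 3 (adjusted p up to 0.127). The number called ran from 0 to 14 when single arrays were left out. Their summed level was 12.777 to 12.975 in hippocampus and 12.246 to 12.782 in cortex. These ranges overlapped only in that cortical array 3, at 12.782, lay just above hippocampal array 1, at 12.777. Their mean log2 level, 8.294 to 8.462 in hippocampus and 7.827 to 8.271 in cortex, did not overlap. Of 7 precursor markers 2 were higher, with 0 in the paired fit, of 17 astrocyte markers 2 were higher, Agt (0.55) and Gja1 (0.22), and of 12 microglia markers 1 was lower. Gja1 had adjusted p of 0.0994 in the paired fit and 0.233 without both arrays numbered 1, and up to 0.125 with 1 array left out, passing only without cortical array 2 or TFS array 3. Of the endothelial markers 10 lay below 0 and Abcb1a at 0, with 3 of 11 lower, 2 in the paired fit. Of 9 pericyte markers 8 lay below 0 and 1 above, and 0 were called, 1 in the paired fit. The summed pericyte level was 10.147 to 10.337 in hippocampus and 10.381 to 10.798 in cortex, without overlap.

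Markers of tissue next to the dissected regions were counted too. Summed choroid plexus and ependyma markers, 12 tested, ran from 11.559 to 12.529 in hippocampus and from 10.287 to 10.481 in cortex, with 2 called higher, Ttr and the ependymal gene Tmem212 (0.38), and 4 in the paired fit. Kl, the choroid plexus gene klotho, showed 7.16, 6.82 and 8.55 in hippocampus, against 5.17, 5.40 and 5.57 in cortex (2.13, adjusted p = 0.114), and Enpp2 9.67, 9.86 and 10.61, against 8.67, 8.74 and 9.23 (1.17, adjusted p = 0.0539). Hippocampal array 3 was highest for Ttr, Kl and Enpp2. Kcnj13, Cldn2 and Prlr were below the signal filter. Summed meningeal and fibroblast markers, 13 tested, ran from 10.971 to 11.288 in hippocampus and from 11.804 to 12.414 in cortex, all 13 below 0, with 4 called lower, also 4 in the paired fit and 1 without both arrays numbered 1. The retinoic acid enzyme Aldh1a2 differed by -0.94 and the collagen Col1a2 by -0.84 (adjusted p = 0.0142 and 0.0395), and Aldh1a2 had 0.0511 in the paired fit and Col1a2 0.147 without both arrays numbered 1. Aldh1a2 missed the threshold without hippocampal array 1 or 3 (up to 0.0505) and Col1a2 without any 1 array other than TFS array 3 (up to 0.131). Slc6a20a, the 1 called member over 2-fold, differed by -1.27 (adjusted p = 0.0479, and 0.153 without both arrays numbered 1). It lost its call in 13 of 25 alternative settings. Ogn (-1.47) and Ptgds (-1.28) were not called (adjusted p = 0.0774 and 0.0564). With 1 array left out, 0 to 7 members of the list were called. Their part in the other differences was not tested. All 9 striatal markers lay below 0, and of them 1 was called lower and 0 passed in the paired fit. The summed striatal level was 10.04 to 10.113 in hippocampus and 10.174 to 10.414 in cortex, without overlap. Of 9 thalamic markers 2 were higher and 1 lower, and 0 of 6 red blood cell and 0 of 7 Cajal-Retzius markers were called. The thalamic calls were Plekhg1 (0.82), Lhx9, which the transcription factor list also holds, and Rora (-0.84, adjusted p = 0.0589 in the paired fit).

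Hippocampus after TFS shares the cortical arrays as its comparison here, so its differences are not independent of those above. Ttr showed 11.19, 11.34 and 8.82 on the 3 TFS arrays, where array 3 was the low one, and its difference from sham cortex was 2.90, beside 3.30 in sham hippocampus. Shisa6 showed 9.82, 9.95 and 9.82 after TFS, 2.79 above cortex, beside 2.67 in sham hippocampus. Where a called gene had more than 1 row, as 121 did, 111 of 142 other rows had the sign of the row used, and 1, of Grik3, differed in sign at an unadjusted p under 0.05.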

How the data were processed

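Log2 intensities of 9 Clariom D rat arrays were used as deposited. The submitters' processing notes name RMA, which corrects background, normalizes between arrays and summarises probes as log2 values, and limma, with no version or order. The build of the array annotation is not stated there. In these values 8554 of the 15522 tested genes have exactly the same number on 3 or more arrays.

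Of 23446 rows with 1 symbol, the brightest row per gene, by its mean over all 9 arrays, was kept. A limma fit (limma 3.58.1, R 4.3.3) with a mean for each of the 3 groups used all 9 arrays (residual df 6), and hippocampus minus cortex was tested with Benjamini-Hochberg adjustment over 15522 genes at 0.05. An exact permutation test of 3 arrays against 3 cannot go below 0.1. Deviations from the region means of like-numbered sham arrays correlated at 0.416, 0.202 and 0.252, and of unlike-numbered ones at -0.291 to 0.0604, over genes. Deviations cancel within a region. The numbers were therefore treated as pairs in an alternative fit. The pairing comes from the titles' numbers and this check, not from a statement that regions share a rat.

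The 44 gene lists, 13 of them of cell type markers, and the rule for named genes were chosen with earlier results of these data known. The rule took the 15 largest called differences in each direction among genes whose hippocampal and cortical sham arrays did not overlap. It also took up to 5 called members per list and direction, all members of the field, layer, glutamate and GABA receptor lists, and called microRNA genes. Slit2 was added as the host of a microRNA gene. Marker lists are given by counts and ranges. Alternatives varied the signal filter, rows, scaling, variance model, threshold, pairing and arrays left out.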

Additional observations from a re-analysis of the deposited data

How the results depend on the processing

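The count of 1931 genes called moved by over 1.5 times under few settings. It was 1201 with only genes above the negative controls (573 lower, 57 over 2-fold), 1211 with the 6 sham arrays alone (581 higher, 630 lower), and 398 with a 1.5-fold minimum (193 higher, 205 lower). With the replicate number as a fixed block it was 982 (500 higher, 482 lower), and as a random block 1787. Testing every row, with or without a symbol, gave 237 differences over 2-fold. With single arrays left out the count ran from 1285 to 2183, with 591 to 1101 higher, 690 to 1082 lower and 102 to 131 over 2-fold. The lowest total was without hippocampal array 2, and without array 2 or 3 of hippocampus 595 and 591 were higher. Of 333 called list members, 180 passed with the block, 202 without both sham arrays numbered 1, and 150 under every setting apart from the 1.5-fold minimum. No followed gene changed direction. The E-box share was 26.2% of higher and 17.9% of lower genes past 2-fold, and 12.9% and 12.1% over all called genes. Signal limits 841 called genes, whose means lay under the negative control limit in both regions. The causes of these changes were not tested.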

Other observations

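Copines and canonical transient receptor potential channels are families without a list of their own above, named here after their values were seen. Cpne4 was also counted in the CA field list and Trpc6 in the dentate granule list. Copines bind membranes when calcium rises, and 4 of 8 tested were higher in hippocampus and 2 lower, beside 5.99% and 6.46% of all genes. Beside Cpne4, Cpne7 showed 8.56, 8.66 and 8.38 in hippocampus, against 6.80, 7.46 and 6.77 in cortex, a difference of 1.53 (adjusted p = 0.00169). Cpne6, which acts in dendritic spines, showed 9.88, 9.90 and 9.75, against 8.64, 9.02 and 8.68 in cortex (1.06, adjusted p = 0.000471). Cpne2 was 1.02 higher, with an adjusted p of 0.0676 in the paired fit and 0.201 without both arrays numbered 1. It also missed the threshold without cortical array 1 or 3, any 1 sham hippocampal array, or TFS array 1 or 2 (adjusted p up to 0.109). Cpne5 (-0.82, adjusted p = 0.000494) and Cpne9 (-0.82, adjusted p = 0.00272, and 0.0557 in the paired fit) ran the other way. Both means of Cpne9 were under the negative control limit.

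Of 6 tested Trpc channel genes, which encode calcium-permeable cation channels, 2 were higher. Trpc4 showed 8.38, 8.38 and 8.22 in hippocampus, against 6.95, 7.0 and 7.31 in cortex (1.24, adjusted p = 0.00037, and 0.64 as the mean of its rows). Trpc5 showed 7.85, 7.98 and 8.04, against 6.79, 7.06 and 6.99 in cortex (1.01, adjusted p = 0.000414). The others, Trpc1, Trpc2, Trpc6 and Trpc7, lay between 0.01 and 0.21 and were not called.

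Other genes above the negative control limit in both regions differed by over 2-fold. Dgkg, a diacylglycerol kinase, was 1.34 higher, Nrip3 1.29 higher, the GTPase gene Arl15 1.08 higher and the receptor kinase Kit 1.05 higher. Atp2b4, a plasma membrane calcium pump, differed by -1.33, Garnl3 by -1.27, the exchange factor Ngef by -1.19 and Mlip by -1.11.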
